A study of Mus musculus with 15 samples.

Results

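The genes described here encode the proteins of the cytoplasmic ribosome, in RNA from quadriceps muscle of adult mice. They were taken from the deposited table by name: protein-coding genes whose GENCODE symbol begins with Rpl or Rps and a digit, with Rplp0, Rplp1, Rplp2 and Rpsa, but without the S6 kinases, Rps19bp1 and names ending in -ps. The rule gave 85 genes, of which 81 had a mean of at least 10 normalized counts over the 15 libraries, out of 13499 genes at that level and 50686 in the table. Of the 81, 46 encode proteins of the large subunit, 32 of the small subunit and 3 the stalk. All 81 stood at 10 or more in every library, so the threshold was not reached through 1 group alone. Just inside it lay Rpl23a (34.6) and Rpl13a (78.2), and just outside it Rps27rt (4.79), Rpl24 (2.18), Rpl39l (0.340) and Rpl10l (0.0679).

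The animals were 10-month-old C57BL/6 offspring, 3 per group, that had chow and no running from birth in every group. In the maternal sedentary and maternal exercised groups the mother had a 60% high-fat diet for 6 weeks before mating with a lean male, and her running wheel in pregnancy was locked or free. In the paternal sedentary and paternal exercised groups the father had that diet and the dam was lean, with a locked or a free wheel. In the control group the parents ate chow and the wheel was locked, and the same 3 control libraries serve both arms. The labels do not tie animals to litters, and the p-values therefore speak only of the spread among these 15 samples, which may be litter mates. All 12 muscle markers were measured, at 182156 to 244186 RPM (reads scaled to a fixed library total), which fits the labelled tissue.

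A ribosome joins a small subunit, which decodes the mRNA, to a large subunit, which forms the peptide bond, and the stalk of the large subunit recruits the translation factors. Their mRNAs are known for a tract of pyrimidines at the 5′ end, the terminal oligopyrimidine tract, through which mTORC1 and the RNA-binding protein LARP1 control their translation. Muscle is unusual among tissues in having its own form of the large subunit protein L3, encoded by Rpl3l, beside the Rpl3 found elsewhere.

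The region around the transcription start is shown for 10 of the genes, since the tract begins there. Sequences from RefSeq (GRCm38.p6) were matched to 61 of the 81 genes, and those of the other 20 were not used here. Each line gives 40 bases before and 20 after the annotated start on the strand of the gene, and capitals mark an unbroken run of at least 8 pyrimidines. Rps21, Rps12, Rpl6 and Rpsa are shown for their place in the comparisons with control, Rps6 and Rplp2 for their function, Rpl4 and Rpl22l1 as a steady and an unsteady gene, Rpl7a as the longest run, and Rpl3l as the muscle form.
Rps21 (chr2:180257339-180257398, + strand): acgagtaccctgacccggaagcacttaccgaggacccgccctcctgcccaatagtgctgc
Rps12 (chr10:23787190-23787249, - strand): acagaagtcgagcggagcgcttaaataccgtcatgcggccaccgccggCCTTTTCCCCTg
Rpl6 (chr5:121204461-121204520, + strand): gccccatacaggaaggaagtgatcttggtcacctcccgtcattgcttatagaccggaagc
Rpsa (chr9:120127726-120127785, + strand): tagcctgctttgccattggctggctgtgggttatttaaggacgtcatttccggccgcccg
Rps6 (chr4:86857348-86857407, - strand): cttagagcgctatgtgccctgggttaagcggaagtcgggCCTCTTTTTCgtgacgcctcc
Rplp2 (chr7:141447611-141447670, + strand): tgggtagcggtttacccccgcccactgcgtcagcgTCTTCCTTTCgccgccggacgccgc
Rpl4 (chr9:64173347-64173406, + strand): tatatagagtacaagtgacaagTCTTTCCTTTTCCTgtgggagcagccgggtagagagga
Rpl22l1 (chr3:28805468-28805527, + strand): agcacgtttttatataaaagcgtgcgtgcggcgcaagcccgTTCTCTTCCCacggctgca
Rpl7a (chr2:26910767-26910826, + strand): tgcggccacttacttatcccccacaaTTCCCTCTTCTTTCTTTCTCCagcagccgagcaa
Rpl3l (chr17:24727786-24727845, + strand): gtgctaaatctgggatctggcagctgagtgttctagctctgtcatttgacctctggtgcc

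A run of at least 8 pyrimidines on the strand of the gene lay in this 60-base window in 31 of the 61 genes (50.8%), against 22.6% of the 10068 other tested genes with an entry. In Rpl7a it spans 21 bases, and in Rpl3l the longest run is 5. The run was counted anywhere in the window. It can lie wholly before the annotated start, as in Rpl4, where 14 bases begin at position -18. The share is therefore not that of mRNAs that begin with the tract. The letters CCGGAAG, the core bound by ETS factors such as GABP, were looked for on both strands of the full 300-base entry and stood in 24 of 61 (39.3%), against 17.7% of the others. AAGATGG, part of the site bound by YY1, stood in 9 (14.8%), against 7.16%. CTTCCGG, the reverse complement of CCGGAAG, opens with 5 pyrimidines and so can overlap a run. These matches describe the letters in the windows and are not mapped binding sites.

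The level of the 81 genes spanned more than 2 orders of magnitude on the scale of mean normalized counts per kb of the annotated principal mRNA, with a median of 2391. Highest were Rplp1, a stalk protein, at 13514, Rps15, of the small subunit head, at 11718, Rpl4 at 8604, Rpl3l at 8517 and Rplp0, the base of the stalk, at 8368. Lowest were Rpl23a (61.8), Rpl13a (74.7), Rpl7l1 (183), Rpl22l1 (262) and Rps15a (303). The order depends on the transcript chosen. Divided by the shortest principal transcript, Rps15a (640 instead of 5130 bases) stood at 2432 and Rplp2 (421 instead of 964 bases) moved from rank 28 to rank 3.

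**Figure D1:**
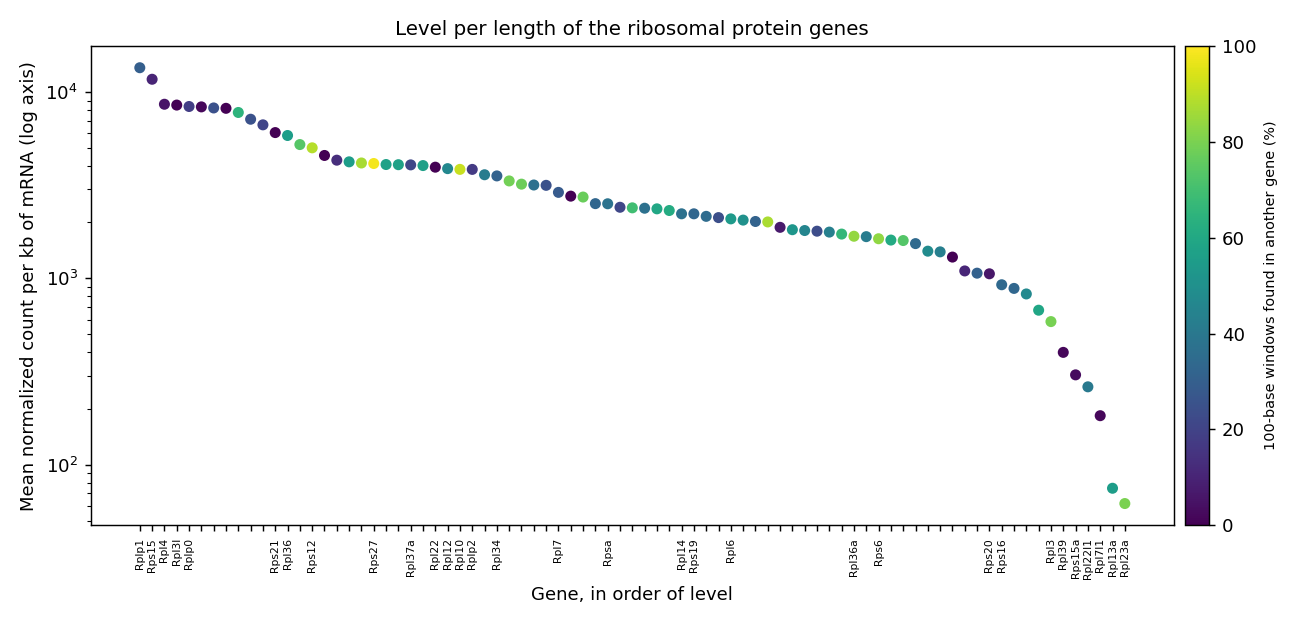
Mean normalized count per kb of the principal mRNA (log axis) for the 81 genes in order of level, each point 1 gene averaged over 15 libraries and coloured by the percentage of its 100-base windows that also occur in another annotated gene, with the names of a selection of genes on the axis. The levels run from 13514 for Rplp1 to 61.8 for Rpl23a, and most genes lie on a plateau between these ends.

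These mRNAs are short, with a median of 774 bases against 2920 for other tested coding genes, and most share stretches of identical sequence with another annotated gene. Of the 81, 74 shared at least 1 window of 100 bases, the read length, with another annotated gene, 30 shared at least 50% of their windows, and the median was 36.9%. The 7 that shared none include Rpl22, Rpl3l, Rps21 and Rps27l. Rps27 shared 98.4% and Rpl10 91.6%, and the labels do not say how reads mapping to several places were counted. Counts of the shared genes are therefore uncertain. Annotated pseudogenes named after these genes held few reads: 11 of 283 reached a mean of 10, and all together amounted to 0.179% of the sum of the 81. Pseudogenes with other kinds of symbol were not counted here. This share too depends on how reads mapping to several places were counted. The introns of 30 of the genes hold 58 annotated snoRNA genes, none of which reached a mean of 10 (highest 3.21).

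Rpl3l exceeded Rpl3 in every library. Rpl3l had 12277, 11607 and 14414 normalized counts in the maternal sedentary, 10216, 11181 and 11296 in the maternal exercised, 9433, 11004 and 12487 in the paternal sedentary, 11932, 10908 and 10617 in the paternal exercised and 13201, 14661 and 10420 in the control libraries. Rpl3 had 827, 863 and 829 in the maternal sedentary, 775, 682 and 1218 in the maternal exercised, 666, 726 and 859 in the paternal sedentary, 611, 830 and 718 in the paternal exercised and 822, 719 and 730 in the control libraries. The mean level per kb was 14.5 times that of Rpl3, but Rpl3 shares 79.4% of its windows with other genes and Rpl3l none. No reads were counted by window here. With the whole count of each gene divided by its number of unshared windows, as if those windows alone had collected the reads, the ratio was 2.99. The log2 ratio was lowest, at 3.21, in maternal exercised replicate 3. In that library 6 fibroblast markers together stood at 1619 RPM, against 203 to 456 in the other 14, and the part of those cells in the ratio was not tested. In bulk RNA a change in the make-up of the tissue and a change in RNA per cell cannot be told apart.

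The other paralogues were lower than their namesakes. Per kb, Rpl22, a protein of the large subunit, stood 15.1 times above Rpl22l1, Rpl7 15.8 times above Rpl7l1, Rps27 3.18 times above Rps27l, and Rpl36a 2.5 times above Rpl36al. Shared reads make the size of these ratios uncertain, most of all for Rps27. The X-linked Rps4x stood 41.1 times above Rps4l, a transcribed pseudogene that is not among the 81. Rpl39l and Rpl10l, known for their expression in testis, lay below the threshold. Rpl22l1 varied most among these: it had 129, 127 and 81 normalized counts in the maternal sedentary, 132, 128 and 164 in the maternal exercised, 222, 175 and 81.7 in the paternal sedentary, 167, 154 and 179 in the paternal exercised and 184, 65.7 and 177 in the control libraries. Its 3 low values are those of maternal sedentary 3, paternal sedentary 3 and control 2, the libraries in which GC-rich mRNAs were high, as described next.

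Over the 15 libraries the genes had a median SD of 0.17 on the log2 scale, against 0.26 for 12325 other tested coding genes. These sets were not matched for level. The ribosomal protein genes had a median of 1967 normalized counts, while the others include all coding genes with a mean of at least 10. Whether the lower SD goes with the level alone was not tested. The SD ranged from 0.07 for Rpl10, which joins the large subunit late in assembly, to 0.53 for Rpl23a. The steadiest after Rpl10 were Rpl14 (0.07), Rpl4 (0.08), Rpl22 (0.10) and Rpl34 (0.11), and the least steady after Rpl23a were Rpl22l1 (0.50), Rpl39 (0.35), Rpl36 (0.29) and Rpl37a (0.28). Rpl4 had 12936, 13030 and 12053 normalized counts in the maternal sedentary, 12471, 14041 and 13978 in the maternal exercised, 12301, 13741 and 12966 in the paternal sedentary, 13437, 12290 and 12881 in the paternal exercised and 14319, 14077 and 13983 in the control libraries. Its control values are among the 4 highest of the 15. Rpl23a, at a mean of 34.6, had from 12.5 (control 3) to 55.1 (maternal sedentary 3).

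Their variation followed the base composition of the mRNA. The first principal component of the 81 genes held 66.4% of their variance, and its loadings had a Pearson r of 0.61 with GC content across the 81 genes, which are not independent replicates. The 40 members above the median GC content (51.8%) were set against the other 41 in each library. This difference of medians was 0.12, 0.05 and 0.37 log2 in the maternal sedentary, -0.05, -0.11 and 0.00 in the maternal exercised, -0.25, -0.23 and 0.23 in the paternal sedentary, -0.07, -0.02 and -0.18 in the paternal exercised and -0.01, 0.35 and -0.18 in the control libraries. Maternal sedentary 3, control 2 and paternal sedentary 3 were highest. Other coding genes behaved alike: their upper quartile of GC content stood 0.71, 0.68 and 0.42 log2 above their lower quartile in those 3 libraries, and the sign was that of the ribosomal protein genes in 13 of 15. Maternal sedentary 3 and control 2 also had the fewest genes with a read, 17581 and 17699, against 19062 to 20771 elsewhere.

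**Figure D2:**
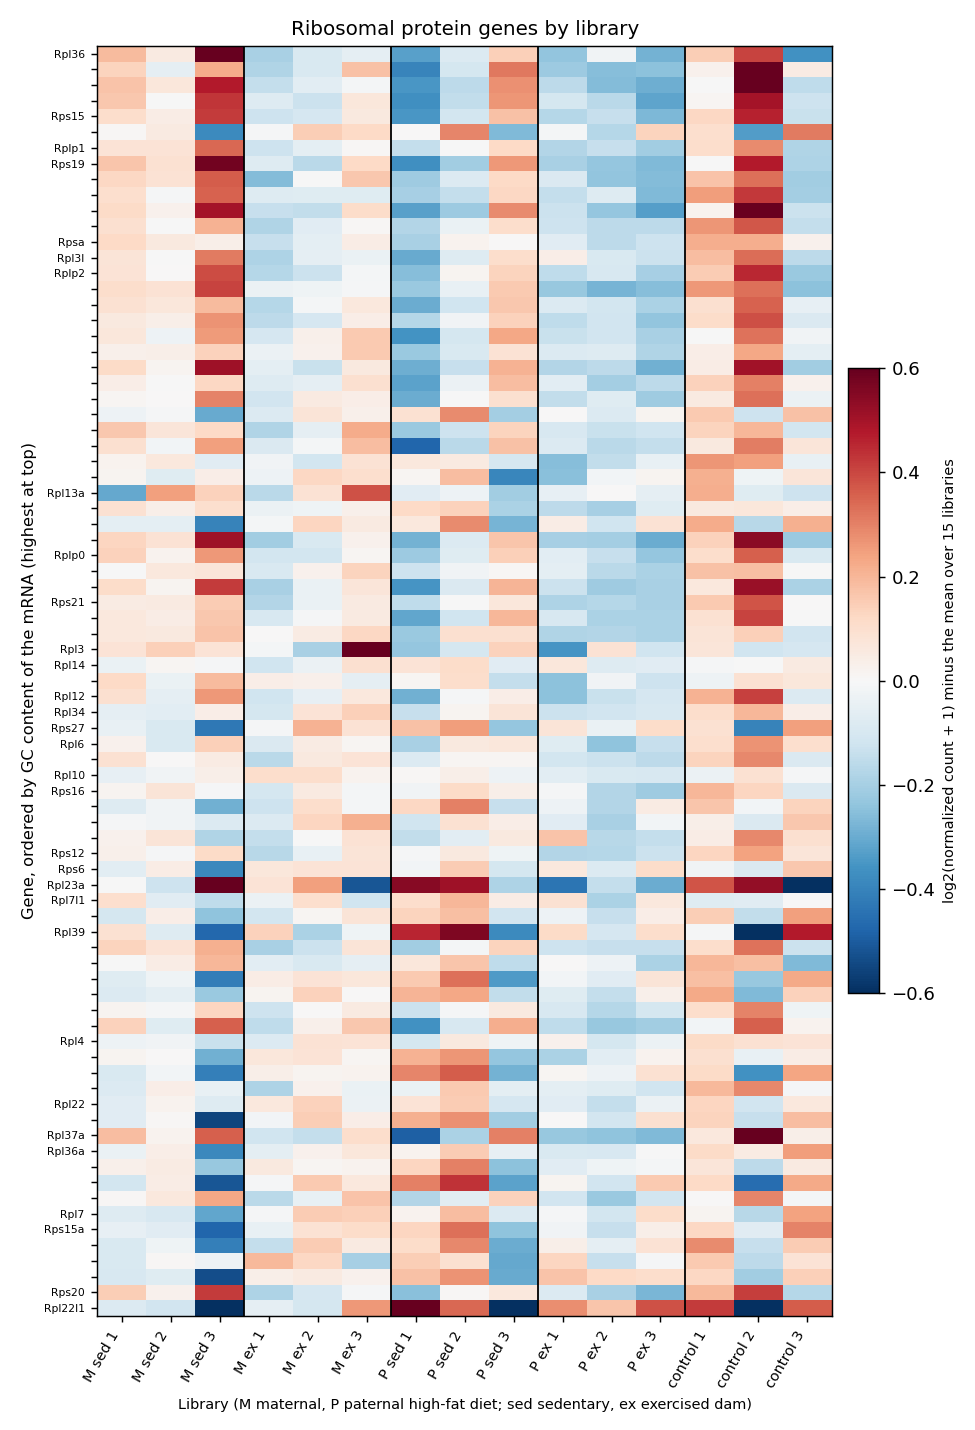
Log2 value of each of the 81 genes minus its mean over 15 libraries (colour, limits at -0.6 and 0.6), with genes ordered by GC content from highest at the top, a selection of them named, and libraries by group. Maternal sedentary 3 and control 2 are red at the top and partly blue at the bottom, paternal sedentary 1 and 2 are the opposite, and the 3 paternal exercised libraries are pale blue over most genes.

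**Figure D3:**
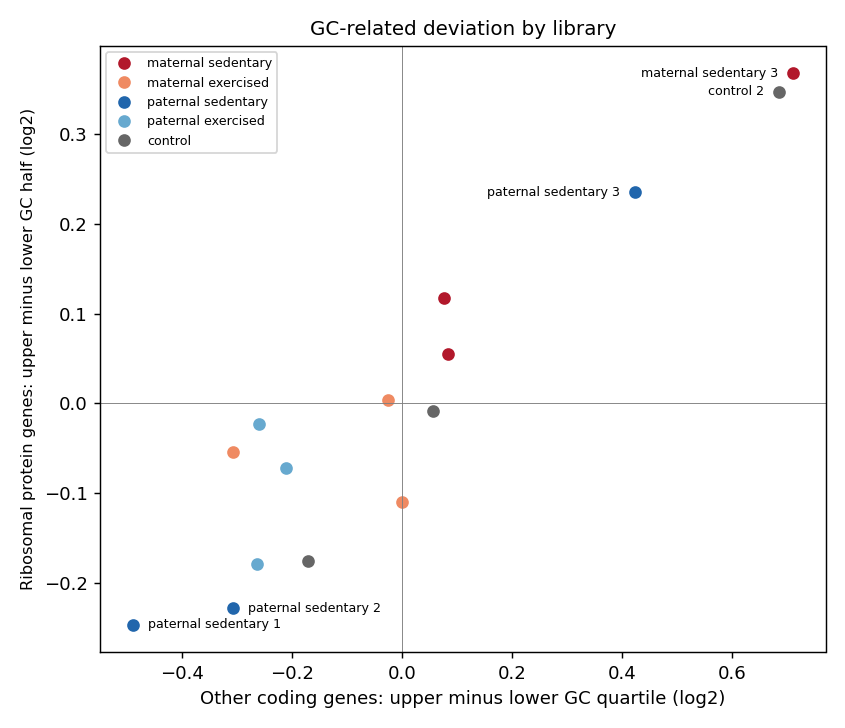
For each library, the difference in median log2 deviation between GC-rich and GC-poor ribosomal protein genes (vertical axis) against that between the upper and lower GC quartile of other coding genes (horizontal axis), with points coloured by group. Maternal sedentary 3 and control 2 lie far to the upper right, at 0.71 and 0.68 on the horizontal axis.

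The 81 genes took 0.836% to 1.10% of all reads. They took 9692, 9550 and 9686 RPM in the maternal sedentary, 9768, 9494 and 9831 in the maternal exercised, 9708, 9962 and 9816 in the paternal sedentary, 8356, 8731 and 8969 in the paternal exercised and 9377, 10955 and 10093 in the control libraries. The 3 paternal exercised libraries were the lowest of the 15 and overlapped no other group. Group means were 9642 ± 80.3 for maternal sedentary, 9697 ± 179 for maternal exercised, 9829 ± 127 for paternal sedentary, 8685 ± 309 for paternal exercised and 10142 ± 790 for control (SD, n = 3 each). On the authors' normalization the separation was smaller: the median deviation of the genes from their own means was -0.08, -0.14 and -0.13 log2 in the paternal exercised libraries, but -0.13 in paternal sedentary 1 and -0.09 in maternal exercised 1, and it was 0.12, 0.23 and 0.00 in control.

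**Figure D4:**
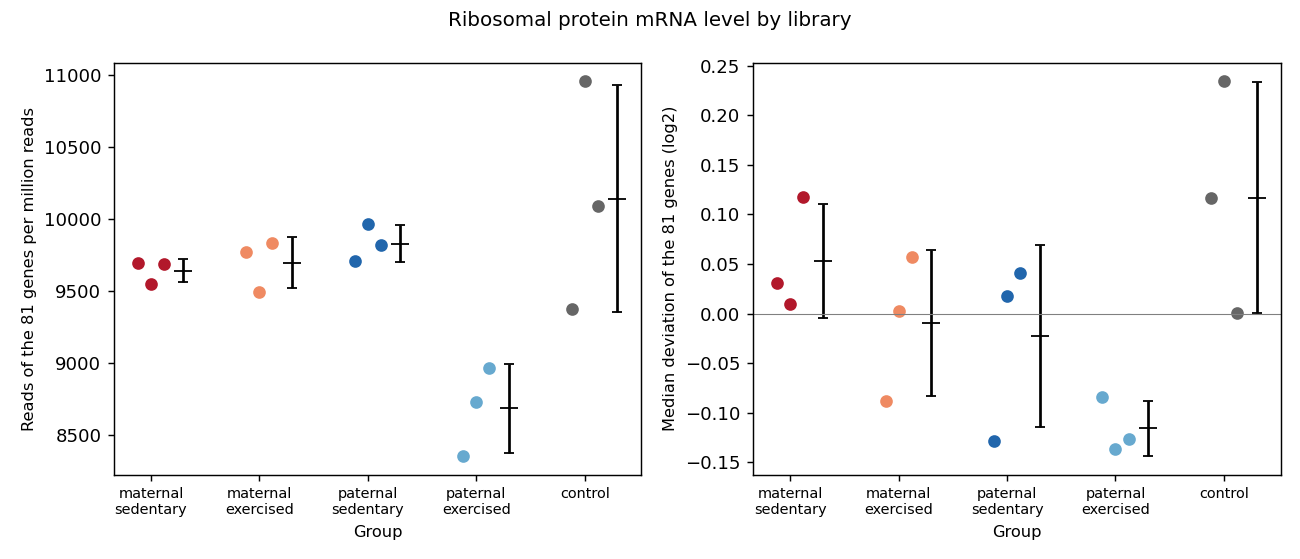
Share of reads from the 81 genes, in RPM (left), and their median log2 deviation from the mean over 15 libraries (right), 1 point per library, with the group mean and SD beside the points. The paternal exercised libraries are the lowest 3 on the left (8356 to 8969), whereas paternal sedentary 1 and maternal exercised 1 fall among them on the right.

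The comparison of paternal exercised offspring with control, which asks how paternal obesity and exercise of the dam together leave offspring muscle, gave the largest median difference of the 8 comparisons. Of the 81, 73 had a lower mean in paternal exercised muscle, beside 50.1% of all genes tested, and the median log2 difference was -0.22, beside -0.00 for all genes. By subunit, 42 of 46 large, 28 of 32 small and 3 of 3 stalk genes had lower means. In 31 of the 81 the paternal exercised values all lay below the control values, beside 8.7% of all genes, and in 0 they all lay above, beside 11.7%. No single gene passed: limma called 0 of the 81 at an adjusted p of 0.05, beside 0.0% of all genes tested. At an unadjusted p under 0.05 there were 22 lower and 0 higher, beside 5.62% and 8.09% of all genes, and edgeR (28 unadjusted), DESeq2 (32) and limma voom (24) also called 0 of the 81. The unadjusted counts of these tools, and those under other settings or with libraries left out below, take both directions together. The share of all genes was not counted beside them.

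Rps21, a small subunit protein that shares no window with other genes, had the smallest p in this comparison (chromosome 2, 180257377 to 180258445, GRCm38). It had 2087, 2112 and 2071 normalized counts in the paternal exercised and 2646, 3089 and 2377 in the control libraries. These groups did not overlap, and the paternal exercised values were the 3 lowest but for 2105 in maternal exercised 1. Its mean was 2090 ± 20.4 in paternal exercised muscle and 2704 ± 359 in control (SD, n = 3 each), a log2 difference of -0.36 ± 0.11 (SE), with a limma adjusted p of 0.284.

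Rps12, a small subunit protein for which 88.9% of windows are shared with other genes (chromosome 10, 23785183 to 23787275), had 2185, 2198 and 2263 normalized counts in the paternal exercised and 2707, 2924 and 2596 in the control libraries. All 3 paternal exercised values were below every control value, and the mean was 2215 ± 42.0 in paternal exercised muscle and 2742 ± 167 in control, with a log2 difference of -0.31 ± 0.09 (SE) and a limma adjusted p of 0.284. Rpl6, a large subunit protein (chromosome 5, 121204481 to 121209241), had 2511, 2231 and 2401 in the paternal exercised and 2827, 3180 and 2827 in the control libraries. Again without overlap, it averaged 2381 ± 141 in paternal exercised muscle and 2944 ± 204 in control, with -0.31 ± 0.10 (SE) and a limma adjusted p of 0.291. Rpsa, a small subunit protein also known as the laminin receptor, had 3827, 3595 and 3670 in the paternal exercised and 4661, 4660 and 4075 in the control libraries, a log2 difference of -0.27 ± 0.10 (SE).

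The largest difference in log2 of a ribosomal protein gene from control in any of the 4 groups was that of Rpl37a here, at -0.48 ± 0.18 (SE). Rpl37a had 1902, 1882 and 1851 normalized counts in the paternal exercised and 2330, 3391 and 2281 in the control libraries. The stalk genes overlapped between these groups: Rplp0 had 10805, 10243 and 9598 in the paternal exercised and 12153, 14483 and 10581 in the control libraries, and its difference was -0.27 ± 0.13 (SE), beside -0.24 for Rplp1 and -0.28 for Rplp2. Rps6, the substrate of S6 kinase, had 1493, 1350 and 1538 in the paternal exercised and 1405, 1345 and 1594 in the control libraries, a difference of 0.01 ± 0.12. Of the 8 genes with higher means, all with overlap, the others were Rpl22l1 (0.37 ± 0.38), Rpl39 (0.11), Rpl5 (0.11), Rps27 (0.07), Rps24 (0.06), Rpl7l1 (0.03) and Rps3a1 (0.03).

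These values depended on single libraries. Without control 2, which had few detected genes, 4 genes had an unadjusted p under 0.05 and the median was -0.17, while 79 of 81 had lower means and 46 lay wholly below control, as did 1618 of all 13499 genes tested. The number of unadjusted p under 0.05 was 44 without control 3, 11 without control 1 and 10 without paternal exercised 2 or 3. Leaving out the 4 libraries with hepatocyte transcripts, or the 2 with few detected genes, removed only control 2 from the groups compared here. The median was then again -0.17. The unadjusted number was 5 without the 2 libraries with few detected genes and 6 with the leading code of the sample title as a covariate. The meaning of that code is not stated, all 3 maternal sedentary libraries and maternal exercised 3 share 1 code, and the fit could not be estimated for maternal sedentary or maternal exercised against control or for maternal sedentary against paternal sedentary. A GC score of each library was taken from other tested coding genes, without the 81. It was the mean deviation of their upper GC quartile minus that of their lower quartile. With this score as a covariate, an alternative chosen after seeing the data, 78 of 81 had lower means. The median was then -0.13 and 21 had an unadjusted p under 0.05. Cell markers also differed here: 5 of 6 adipocyte markers had lower means (median -0.85 log2), with summed levels of 27.6 to 66.2 RPM in the paternal exercised and 48.1 to 124.7 RPM in the control libraries. Means were also lower for 10 of 12 muscle (median -0.17), 7 of 8 leukocyte (-0.16), 6 of 6 endothelial (-0.09) and 4 of 6 fibroblast markers (-0.34). So were those of 4 of 5 satellite cell markers (-0.66), with 2 at an unadjusted limma p under 0.05. Higher means were found for 16 of 25 hepatocyte (0.11) and 4 of 5 erythrocyte markers (0.14). Their part in the result was not tested.

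**Figure D5:**
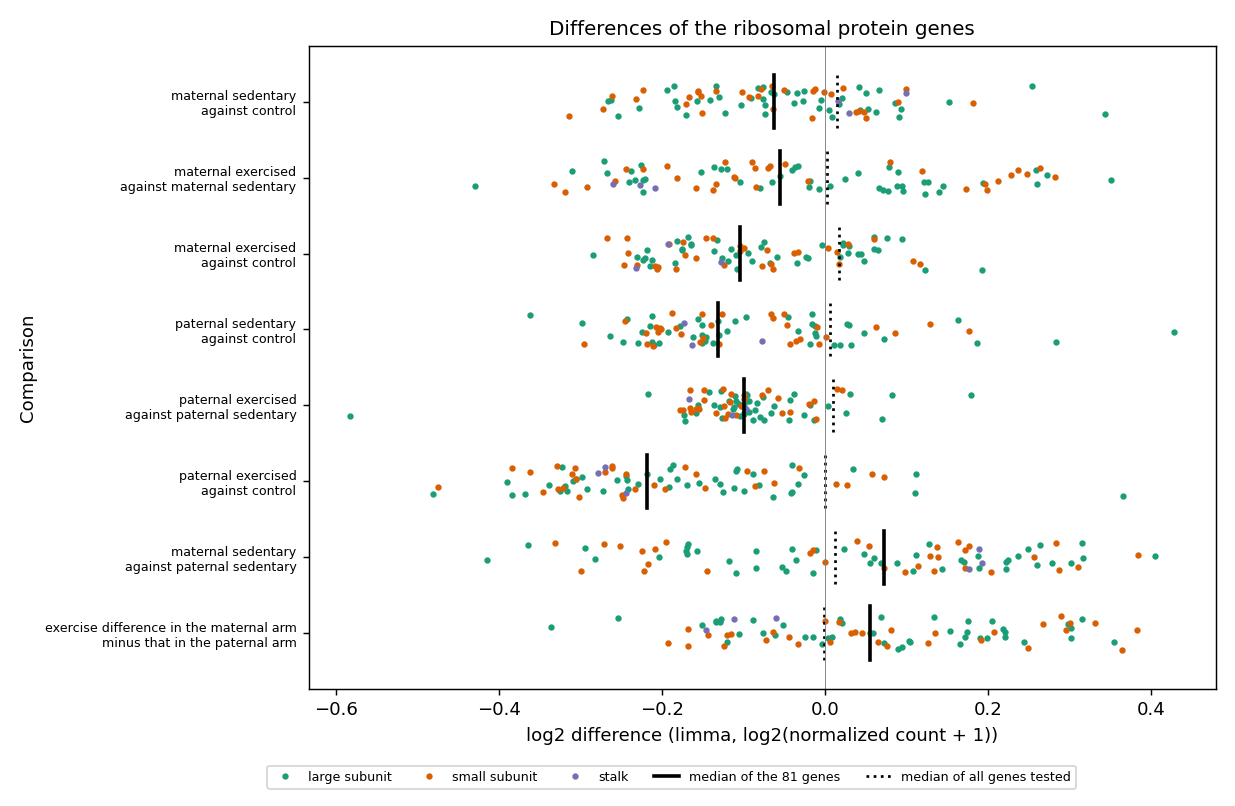
Log2 difference of each of the 81 genes (points, coloured by subunit) in 8 comparisons, with the median of the 81 genes (solid bar) and of all 13499 genes tested (dotted bar). The solid bar lies left of the dotted bar in all 4 groups against control, farthest for paternal exercised (-0.22 beside -0.00), and right of it for maternal sedentary against paternal sedentary and for the difference between the arms.

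Within the paternal arm, offspring of exercised dams were set against those of sedentary dams. Lower means were found for 73 of 81 genes in paternal exercised muscle, beside 48.2% of all genes, with a median of -0.10 beside 0.01. Few of them separated: 6 lay wholly below, beside 5.5%, and 0 wholly above, beside 5.11%. Without paternal sedentary 1, the library of this comparison with hepatocyte transcripts, 33 lay wholly below, beside 10.9% of all genes. The 6 were Rps12, Rpl41, Rps21, Rpl10, Rpl32 and Rpl30. Rps12 had 2185, 2198 and 2263 normalized counts in the paternal exercised and 2459, 2571 and 2427 in the paternal sedentary libraries, a log2 difference of -0.17 ± 0.09 (SE). The next smallest p were those of Rps16 (-0.17 ± 0.10) and Rps7 (-0.17 ± 0.10), whose groups overlapped. limma called 0 of the 81, beside 0.0% of all genes, with 0 at an unadjusted p under 0.05 in either direction, beside 1.84% of all genes higher and 1.93% lower, and edgeR, DESeq2 and voom also called 0, each with 0 unadjusted. All 5 erythrocyte markers had higher means (median 1.09 log2, 5 at an unadjusted p under 0.05), at 65.1 to 135 RPM in the paternal exercised and 33.1 to 65.1 RPM in the paternal sedentary libraries. All 6 endothelial markers (median -0.14) and 5 of 6 fibroblast markers (median -0.40) had lower means, and the part of these cells in the result was not tested.

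Paternal sedentary offspring against control gave 65 of 81 lower means, beside 49.0% of all genes, and a median of -0.13 beside 0.01. Rpsa had 3499, 4063 and 4012 normalized counts in the paternal sedentary and 4661, 4660 and 4075 in the control libraries. Its groups did not overlap, though 4063 and 4075 nearly touch, and it averaged 3858 ± 312 in paternal sedentary muscle and 4466 ± 338 in control (-0.21 ± 0.10 SE). Rpl12, of the large subunit, overlapped between these groups (-0.26 ± 0.13 SE). In all, 4 genes lay wholly below control (Rpsa, Rpl6, Rps12 and Rpl4), beside 3.05% of all genes, and Rpl7l1 wholly above, beside 2.64%. limma called 0 of the 81, beside 0.0%, with 1 lower and 0 higher at an unadjusted p under 0.05, beside 1.41% and 1.46% of all genes, and edgeR (0 unadjusted), DESeq2 (1) and voom (1) called 0. The unadjusted number, both directions together, was 16 without paternal sedentary 3 and 18 without control 3. The share of all genes was not counted beside these. All 5 erythrocyte markers (median -1.09 log2, 5 at an unadjusted p under 0.05) and all 6 adipocyte markers (median -1.02) had lower means. The erythrocyte sum was 33.1 to 65.1 RPM in the paternal sedentary and 53.5 to 128 RPM in the control libraries, the adipocyte sum was 21.5 to 64.9 RPM in the paternal sedentary and 48.1 to 124.7 RPM in the control libraries, and their part in the result was not tested.

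In the maternal arm the means differed in both directions with exercise of the dam. Maternal exercised muscle had 49 of 81 means below maternal sedentary muscle, beside 49.6% of all genes, with a median of -0.06 beside 0.00, which turned to 0.048 with scaling by total reads and to 0.0314 (36 lower) with that title code as a covariate, and was -0.00 (41 lower) with the GC covariate. The groups did not overlap for 14 genes that were lower, beside 8.61%, and for 9 that were higher, beside 8.56%. Among the 14 were all 3 stalk genes: Rplp1 had 6141, 6440 and 6739 normalized counts in the maternal exercised and 7083, 7099 and 8500 in the maternal sedentary libraries (-0.23 ± 0.12 SE), and Rplp0 (-0.21) and Rplp2 (-0.26) were alike. The smallest p was that of Rpl36, a large subunit protein and the member with the highest GC content (60.8%), with 1918, 2063 and 2117 in the maternal exercised and 2500, 2280 and 3592 in the maternal sedentary libraries. Its mean was 2033 ± 103 in maternal exercised and 2791 ± 702 in maternal sedentary muscle, a log2 difference of -0.43 ± 0.19 (SE) and a limma adjusted p of 0.516.

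Rpl7 went the other way, with 3330, 3721 and 3696 normalized counts in the maternal exercised and 3175, 3129 and 2695 in the maternal sedentary libraries (0.26 ± 0.12 SE, limma adjusted p of 0.516). Rps6 was higher as well, at 1495, 1512 and 1509 in the maternal exercised and 1367, 1471 and 1091 in the maternal sedentary libraries (0.21 ± 0.12 SE). Both have their lowest value of the 15 in maternal sedentary 3, and Rpl36 its highest. limma called 0 of the 81, beside 0.0% of all genes, with 1 lower and 1 higher at an unadjusted p under 0.05, beside 5.33% and 4.21% of all genes. edgeR, DESeq2 and voom called 0 as well, with 2 unadjusted each, and the unadjusted number was 0 without maternal sedentary 3 or without maternal exercised 2. Rps20 had the next smallest p, at -0.29 ± 0.15 (SE) without overlap. All 25 hepatocyte markers (median -5.15 log2) and 10 of 12 muscle markers (median -0.29) had lower means and all 6 fibroblast markers higher means (median 0.73). The fibroblast sum was 229 to 1619 RPM in the maternal exercised and 203 to 322 RPM in the maternal sedentary libraries, the hepatocyte sum was 24.95 to 51.4 RPM in the maternal exercised and 28.3 to 4378 RPM in the maternal sedentary libraries, and their part in the result was not tested.

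Against control, maternal exercised muscle had lower means for 59 of 81 genes, beside 47.4% of all genes, and a median of -0.10 beside 0.02. Only Rpl6 and Rps7 lay wholly below, beside 4.72%, and 0 wholly above, beside 5.54%. The smallest p were those of Rps21 (2294 ± 182 in maternal exercised muscle and 2704 ± 359 in control, -0.23 ± 0.11 SE), Rpl30 (-0.22 ± 0.10) and Rpsa (-0.21 ± 0.10), all with overlap and a limma adjusted p of 0.568. limma called 0, beside 0.0%, with 1 lower and 0 higher at an unadjusted p under 0.05, beside 3.85% and 4.91% of all genes. edgeR (3 unadjusted), DESeq2 (5) and voom (4) also called 0 of the 81. Without control 3 the unadjusted number was 18, both directions together and with no share of all genes counted, and the median was -0.16. The median was -0.05 without maternal exercised 1, -0.06 without control 2 and -0.03 with scaling by total reads. All 6 fibroblast markers had higher means (median 0.57). Lower means were found for 5 of 6 adipocyte (median -0.78), 22 of 25 hepatocyte (-0.66) and 4 of 5 erythrocyte markers (-0.23). So were those of 3 of 5 satellite cell markers (-0.48), with 2 at an unadjusted limma p under 0.05. Muscle (7 of 12 lower), leukocyte (4 of 8) and endothelial markers (3 of 6) went both ways. The part of these cells in the result was not tested.

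Maternal sedentary muscle had lower means than control for 53 of 81 genes, beside 47.0% of all genes, and a median of -0.06 beside 0.01. Wholly below were 3 genes, among them Rpl36a and Rpl4, beside 3.58%, and wholly above Rpl3, beside 4.44%. Rpl36a, encoded on the X chromosome, had 787, 833 and 619 normalized counts in the maternal sedentary and 878, 837 and 963 in the control libraries (-0.27 ± 0.12 SE). Rps15a (-0.31 ± 0.15) had the next smallest p. limma called 0 of the 81, beside 0.0%, with 1 lower and 0 higher at an unadjusted p under 0.05, beside 1.4% and 2.64% of all genes, and edgeR, DESeq2 and voom called 0 with 2 unadjusted each. Without control 2 the median was 0.01 and 12 genes had an unadjusted p under 0.05, both directions together. The share of all genes was not counted beside this number. Hepatocyte markers stood at 4378 and 546 RPM in maternal sedentary 2 and 3 and 281 in paternal sedentary 1. They stood at 215 in control 2 and 21.9 to 51.4 in the rest. Without these 4 libraries the medians of the maternal sedentary and paternal sedentary groups against control were -0.00 and -0.03. That left 1 maternal sedentary, 2 paternal sedentary and 2 control libraries, and control 2 alone gave the change to 0.01 above. The part of hepatocyte transcripts in the differences was not tested further.

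The diet of either parent was compared directly in the sedentary groups. Maternal sedentary muscle had lower means than paternal sedentary muscle for 33 of 81 genes, beside 48.3% of all genes, and a median of 0.07 beside 0.01, which turned to -0.0554 with scaling by total reads. It was -0.00 (41 lower) with the GC covariate and 0.00 without the 4 libraries with hepatocyte transcripts. That left 1 maternal sedentary and 2 paternal sedentary libraries. Means were higher for 25 of 25 hepatocyte (median 3.92), 5 of 5 erythrocyte (0.83), 6 of 6 adipocyte (0.58), 10 of 12 muscle (0.03) and 6 of 8 leukocyte markers (0.12). Lower means were found for 6 of 6 fibroblast (-0.27), 5 of 5 satellite cell (-0.18) and 3 of 6 endothelial markers (-0.03). The part of these cells in the result was not tested. Only Rpsa lay wholly above (4352, 4177 and 4104 normalized counts in the maternal sedentary and 3499, 4063 and 4012 in the paternal sedentary libraries), beside 3.99%, and 0 lay wholly below, beside 3.19%. The smallest p were those of Rpl36 (0.41 ± 0.19 SE), Rps19, mutated in the human disease Diamond-Blackfan anaemia (0.38 ± 0.18), and Rpl17 (-0.30 ± 0.16), with a limma adjusted p of 0.723 and with overlap. limma called 0 of the 81, beside 0.0%, with 0 at an unadjusted p under 0.05 in either direction, beside 2.83% of all genes higher and 1.52% lower, and edgeR (0 unadjusted), DESeq2 (1) and voom (0) called 0. Without paternal sedentary 3 the unadjusted number was 35, both directions together, and the share of all genes was not counted beside it.

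The difference made by exercise of the dam was then compared between the arms. Taken as the maternal difference minus the paternal one, it had a median of 0.05 over the 81 genes, beside -0.00, and was negative for 30 of them, beside 50.4% of all genes. Rpl7 (0.30 ± 0.17 SE), Rps27a, which encodes ubiquitin fused to a ribosomal protein (0.33 ± 0.19), and Rps15a (0.36 ± 0.21) had the smallest p in limma. limma called 0, beside 0.0%, with 0 at an unadjusted p under 0.05 in either direction, beside 1.05% of all genes higher and 0.748% lower, and edgeR, DESeq2 and voom called 0 with 0 unadjusted each. The difference between the arms was negative for 25 of 25 hepatocyte (median -4.71), 5 of 5 erythrocyte (-1.02) and 5 of 6 adipocyte markers (-0.39). It was also negative for 7 of 12 muscle (-0.06) and 5 of 8 leukocyte markers (-0.19). Positive values were found for 6 of 6 fibroblast (1.18), 5 of 5 satellite cell (0.34) and 5 of 6 endothelial markers (0.10). The part of these cells was not tested. The 4 comparisons with control share its 3 libraries. Over all 4, 33 of the 81 genes had a lower mean than control in every group, beside 19.3% of all genes tested, and 1 a higher mean.

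Other genes of ribosome production and translation were taken from fixed lists. In paternal exercised muscle against control, 7 of 43 ribosome biogenesis factors had lower means, beside 50.1% of all genes, with a median of 0.19 log2, and 15 lay wholly above control, beside 11.7%. Tsr1, needed for maturation of the small subunit, had 707, 801 and 695 normalized counts in the paternal exercised and 564, 412 and 557 in the control libraries, without overlap (0.53 ± 0.13 SE, limma adjusted p of 0.284). Heatr1, a nucleolar factor, averaged 414 ± 31.6 in paternal exercised muscle and 285 ± 42.3 in control (0.55 ± 0.15 SE). Lower means were also found for 5 of 43 in paternal exercised against paternal sedentary (median 0.16), beside 48.2% of all genes, for 10 in maternal exercised against maternal sedentary (0.16), beside 49.6%, and for 5 in maternal exercised against control (0.17), beside 47.4%. For maternal sedentary against control it was 17 of 43 (0.06), beside 47.0%, and for paternal sedentary against control 18 (0.02), beside 49.0%. None was called by limma in any comparison.

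Translation factors and other proteins with a known oligopyrimidine tract were mixed. In paternal exercised against control 9 of 20 had lower means, with a median of 0.05. Eif3a averaged 6394 ± 177 in paternal exercised muscle and 4928 ± 756 in control (0.39 ± 0.12 SE), and Naca 22029 ± 704 in paternal exercised muscle and 17899 ± 2618 in control (0.31 ± 0.12). Host genes of snoRNAs, whose RNAs carry the same tract, had higher means for all 7 measured, with a median of 0.25, and for all 7 in maternal exercised against control, with 0.53. Snhg1 had 93.1, 206 and 189 normalized counts in the paternal exercised and 103, 17.2 and 129 in the control libraries, and these groups overlapped, with control 2 the lowest. Ribosomal proteins encoded under other names were measured as well: Rack1 averaged 7068 ± 216 in paternal exercised muscle and 8487 ± 997 in control (-0.26 ± 0.11 SE), Fau 1283 ± 71.8 in paternal exercised muscle and 1571 ± 302 in control (-0.27 ± 0.15).

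Of 26 genes of the mTORC1 and S6 kinase pathway, 10 had lower means in paternal exercised muscle than in control (median 0.05). Tsc1, an inhibitor of mTORC1, averaged 2691 ± 342 in paternal exercised muscle and 2025 ± 80.1 in control (0.40 ± 0.13 SE), and Larp4, which binds mRNA tails, 809 ± 102 in paternal exercised muscle and 523 ± 128 in control (0.65 ± 0.20), both without overlap. Among 14 genes of ribosomal protein transcription and the p53 checkpoint, 3 had lower means, and Mdm2, which ribosomal proteins such as Rpl5 and Rpl11 bind, averaged 1291 ± 46.9 in paternal exercised muscle and 995 ± 115 in control (0.38 ± 0.12). Proteins of the mitochondrial ribosome, which is built separately, had lower means for 49 of 77 genes, with a median of -0.07. Of these 77, 16 lay wholly below control, beside 8.7% of all genes, and 6 wholly above, beside 11.7%. In maternal exercised against control 15 of them lay wholly below, beside 4.72%, and 0 wholly above, beside 5.54%. No gene of these lists was called by limma.

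Outside the ribosomal protein genes, the genes whose log2 values had the highest Pearson r with the mean of the 81 over the 15 libraries were Crip1 (0.94), Arhgef25 (0.87), Evpl (0.86), Hint1 (0.86), the processed pseudogene Gm3222 (0.86), Dgcr6 (0.85), Gas6 (0.85), Arhgef10 (0.85), Angptl2 (0.85) and Cacna1h (0.84). All points share the libraries and their base composition, so this is a description.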

How the data were processed

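Ribosome-depleted total RNA of 15 quadriceps samples was sequenced in 100-base single reads, per the labels' protocols. The submitters' processing notes name STAR 2.5.2b, featureCounts 1.5.2, DESeq2 1.11.8 and the build mm10, without their settings. The authors deposited, for each gene and library, a signal that is the read count divided by a size factor. All values (100.0%, tolerance 0.001 reads) are whole multiples of 1 step per library, which gave back 18457663 to 26981745 reads per library. Of 50686 rows, 50462 (99.6%) matched GENCODE names.

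The deposited values were tested as log2(value + 1) in limma 3.58.1 (trend, R 4.3.3), in 1 fit of all 5 groups with 10 residual degrees of freedom, over 13499 genes with a mean of at least 10 and Benjamini-Hochberg adjustment at 0.05. edgeR 4.0.16, DESeq2 1.42.0 and voom on the recovered reads, other pseudocounts, filters and scalings and leaving out libraries were alternatives. Descriptions were computed in Python 3.11.15 with scipy 1.17.1, pandas 2.3.3 and numpy 2.4.6, and drawn with matplotlib 3.10.9. The limma fit without covariates was tested on simulated counts for paternal exercised against control, with the same dispersion for all genes. edgeR, DESeq2, voom and the covariate fits were not tested in this way.

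Named genes are the stalk genes, Rps6, Rpsa, the paralogues, the 5 highest and lowest in level and in SD, the 3 with the smallest p in each comparison, and from the pathway lists those with the smallest p. A few further genes, such as Rpl37a and Rpl7a, were chosen after their values were seen. The members and lists were chosen with earlier results of these data known. A few genes that this rule names are not reported here.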

Additional observations from a re-analysis of the deposited data

How the results depend on the processing

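No alternative called a ribosomal protein gene in any of the 8 comparisons, and the 24 results of single named genes kept direction and call in all 663 alternative values. These 24 had the 3 smallest p of each comparison in the main fit, and none was called there. The call they kept was therefore that of not passing. Leaving out a library outside a comparison cannot change its difference, so part of the 663 values could not have turned direction. Medians over the 81 genes that moved by more than the SD of the library medians within groups, pooled over the 5 groups (0.0794 log2), were as follows. Scaling by total reads gave 0.048 for maternal exercised against maternal sedentary, -0.0321 for paternal sedentary against control, -0.19 for paternal exercised against paternal sedentary, -0.0554 for maternal sedentary against paternal sedentary and 0.24 for the difference between the arms. With this scaling the median of all genes itself was 0.11, 0.10, -0.08, -0.11 and 0.19 in these comparisons, beside -0.00 to 0.01 without it. Fitting the leading title code as a covariate gave 0.0314 for maternal exercised against maternal sedentary. Leaving out the 4 libraries with hepatocyte transcripts gave -0.027 for paternal sedentary against control, with 2 libraries left on each side. The GC score, chosen after seeing the data like the omission of genes sharing windows, gave -0.13 for paternal exercised against control. Leaving out 1 library at a time gave -0.30 to -0.17 for paternal exercised against control, -0.14 to -0.07 for paternal exercised against paternal sedentary, -0.20 to -0.07 for paternal sedentary against control, -0.09 to -0.01 for maternal exercised against maternal sedentary, -0.16 to -0.05 for maternal exercised against control, -0.10 to 0.01 for maternal sedentary against control, 0.04 to 0.12 for maternal sedentary against paternal sedentary and 0.00 to 0.11 for the difference. DESeq2 called 67 genes in paternal exercised against control, 60 in maternal exercised against maternal sedentary, 18 in maternal sedentary against control and 1 in paternal exercised against paternal sedentary, where limma called 0. No paired analysis was possible because the labels give no replicate numbers that pair samples across groups, and the title code, whose meaning is not stated, served only as a covariate, in the 5 comparisons where it could be estimated. With 3 animals a group the SE of a single gene had a median of 0.13 log2.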
